A study of Bos taurus with 12 samples.

Results

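The genes described here encode the subunits and the inhibitor protein of respiratory complexes II, III, IV and V, measured in oocytes of Japanese Black cattle. They were taken by symbol from the array annotation: SDHA to SDHD, all symbols starting with UQCR, CYC1, CYCS, COX4 to COX8, and all symbols starting with ATP5. Probe sets were used only where they carried 1 gene symbol, and where a gene had several, that with the highest mean over 12 arrays was used. The rule gave 43 genes of the 9155 on the array, from 53 probe sets: 4 of complex II, 9 of complex III, 13 of complex IV and 17 of complex V. No probe set was found for the cytochrome c gene CYCS under this rule, and it was not analysed here. Of the 43 genes, 42 passed a filter on mean signal; COX6A2 did not.

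Pools of oocytes were hybridised to 12 Affymetrix bovine arrays, 3 in each of 4 groups. The groups were metaphase II (MII) oocytes of prepubertal heifers, MII oocytes of adult cows, germinal vesicle (GV) oocytes of prepubertal heifers and GV oocytes of adult cows. GV oocytes are arrested at prophase of the first meiotic division and were collected straight from follicles of 2 to 8 mm. MII oocytes are mature eggs, here matured in vitro for 20 to 22 h and selected by their first polar body; the heifers were 9 to 12 months old. Each pool held 50 oocytes stripped of cumulus cells, and its RNA was amplified before labelling, so each value is a relative signal over oocytes of several follicles. All values are log2 signals from MAS5, scaled by the submitters to the same trimmed mean on every array, and a difference of 1 log2 unit is a doubling. Levels are compared between pools for the same probe set and never between probe sets.

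Complex II, succinate dehydrogenase, passes electrons from succinate to ubiquinone and is also a citric acid cycle enzyme. Complex III passes them from ubiquinol to cytochrome c, complex IV from cytochrome c to oxygen, and the proton gradient so built drives ATP synthesis by complex V. ATP5IF1 is the inhibitor that binds complex V and stops it from hydrolysing ATP when the gradient collapses. Oocytes depend on oxidative phosphorylation for ATP during maturation, with mitochondria and transcripts laid down during growth, and transcription is largely silent between the GV stage and MII.

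On 3 of the 12 arrays the oocyte profile was missing. A list of 10 oocyte genes had a median 5.78 to 8.51 log2 units above the array median on 9 arrays, but 0.37 units above it on MII prepubertal replicate 1, -0.45 units on GV prepubertal replicate 1 and 0.82 units on GV adult replicate 1. The linear signals of 20 cumulus and granulosa cell genes summed to 302550 on MII prepubertal replicate 1 and 185925 on GV prepubertal replicate 1, against 8754 to 26978 on the 9 arrays; on GV adult replicate 1 the sum was 9391, and none of the 20 was at 0 on any array. GV adult replicate 1 correlated with no other array above 0.138 (Spearman, across probe sets), and among the 9 arrays MII adult replicate 3 had the lowest such value, 0.553. GV prepubertal replicate 2 came next at 0.612 and had the lowest oocyte gene median of the 9, 5.78. Its array median was 7.52, against 5.64 to 6.52 on the other arrays with an oocyte profile. Results are therefore given over the 9 arrays with an oocyte profile. These are MII prepubertal replicates 2 and 3, MII adult replicates 1 to 3, and replicates 2 and 3 of both GV groups. Member counts and medians, and the differences of some genes, are also given over all 12. Where no set is named, the difference of a gene is over the 9 arrays. Where 3 values of a group are given below, they are replicates 1, 2 and 3, so in every group but MII adult the first value is that of the array without an oocyte profile. The pools are biological replicates by their titles, with no animal or day named, so p-values measure only the spread between these pools, and fewer oocytes with a transcript cannot be told apart from less of it per oocyte.

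Along the 12 arrays, the median of all 43 genes, COX6A2 included, stood 5.51, 4.09 and 4.97 log2 units above the array median in MII prepubertal replicates 1 to 3. It stood 3.93, 3.50 and 1.59 units above it in MII adult pools, 3.93, 2.28 and 6.36 units in GV prepubertal pools, and -0.50, 3.22 and 4.42 units in GV adult pools. The lowest value was that of GV adult replicate 1, and MII adult replicate 3 was the lowest of the 9 arrays with an oocyte profile. Both GV groups were spread widely, with replicate 3 above replicate 2 at each age; the array titles carry a letter b, which the labels do not explain, on replicates 1 and 2 of both GV groups and on no MII array, and its part in this spread was not tested.

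**Figure D1:**
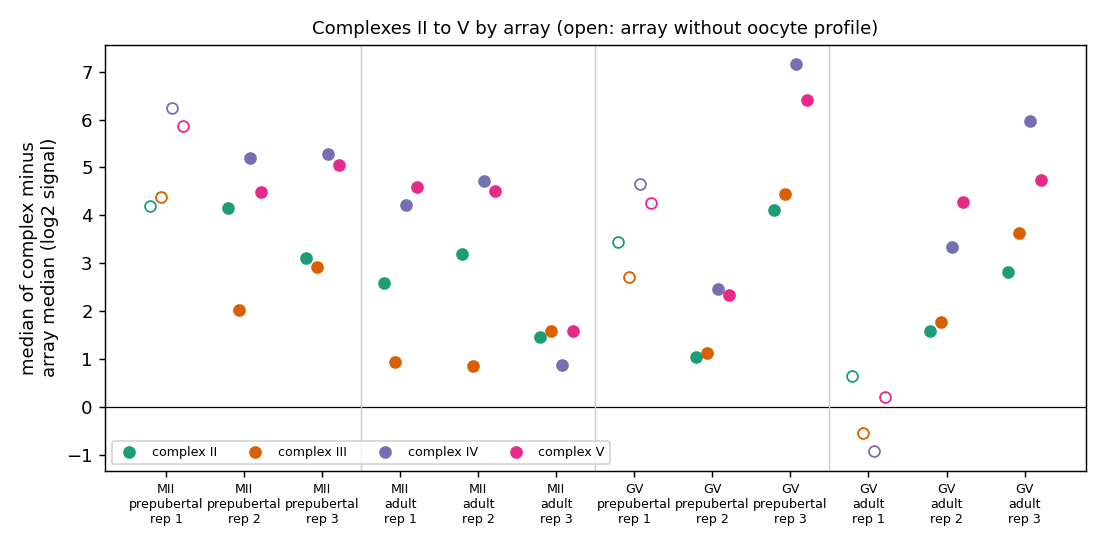
The median of all genes of each complex, COX6A2 included, minus the array's own median (y axis, log2 signal), for the 12 arrays by group and replicate (x axis). Open points are the 3 arrays without an oocyte profile. Complexes II to V mostly moved together along the arrays; GV adult replicate 1 lay lowest, and GV prepubertal replicate 3 was highest for complexes III to V with 4.45, 7.16 and 6.40 units.

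In adult oocytes most genes of complexes II to V gave lower signals at MII than at GV. On the 9 arrays 32 of 42 were lower, or 76.2%, against 48.9% of all 14409 kept probe sets, and the median difference was -1.23 log2 units, against 0.05 for all probe sets. Only ATP5IF1 passed the test (limma, Benjamini-Hochberg adjusted p under 0.05 over all kept probe sets), where 17 of 14409 probe sets did, or 0.118%. At an unadjusted p under 0.05, 12 members were lower (background 4.48%) and 1 was higher (background 6.94%). In 17 members every MII adult pool lay below both GV adult pools, against 13.1% of all probe sets. Over all 12 arrays, with GV adult replicate 1 included, 26 of 42 were lower with a median of -0.61, no probe set passed the test (0%), and 4 members were lower and 2 higher at an unadjusted p under 0.05, against backgrounds of 3.85% and 4.08%. The member median kept its sign over the 9 arrays in every alternative tried, from -1.93 to -0.80, but over 12 arrays it turned to 0.17 when arrays were centred on their medians and to 0.16 without GV adult replicate 3.

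The 4 complexes shared that direction to different degrees over the 9 arrays. Lower signals at MII were found for 3 of 4 genes of complex II (median -0.71 log2 units), 5 of 9 of complex III (-1.37), 11 of 12 of complex IV (-1.72) and 13 of 17 of complex V (-0.97). Over 12 arrays the counts were 3 of 4 (-0.84), 5 of 9 (-1.725), 8 of 12 (-0.56) and 10 of 17 (-0.04). Among related lists, 29 of 37 complex I subunits were lower (median -1.29, 1 of them past the test), as were 17 of 25 assembly factors of complexes II to V (median -0.70, none past the test). Regulators of mitochondrial DNA and biogenesis were divided, with 4 of 9 lower and a median of 0.14. Over 12 arrays these 3 lists had 24 of 37 (median -0.52), 17 of 25 (-0.45) and 4 of 9 (0.03) lower. No list was tested as a set. The cumulus and granulosa genes, by contrast, were higher for 10 of 20 (median 0.14), with linear sums of 8754 to 26978 in MII adult pools and 14615 to 18364 in GV adult pools, and the oocyte genes were lower for 8 of 10 (median -0.58).

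ATP5IF1, the inhibitor of complex V, was the clearest single gene. It measured 11.43, 12.15 and 12.51 in MII adult pools, against 10.83, 14.71 and 15.63 in GV adult pools. In prepubertal pools it measured 15.39, 12.66 and 12.72 at MII, against 14.57, 14.24 and 15.69 at GV. All 5 MII pools with an oocyte profile (11.43 to 12.72) lay below all 4 such GV pools (14.24 to 15.69), whereas of the 3 arrays set apart GV prepubertal replicate 1 (14.57) lay within the GV range, and MII prepubertal replicate 1 (15.39) and GV adult replicate 1 (10.83) lay outside the range of their stage. Over the 9 arrays the signal fell by 3.14 log2 units in adult maturation (95% interval -4.29 to -1.99, SE 0.54, limma adjusted p = 0.0393). In prepubertal maturation the difference was -2.27 units (SE 0.59, adjusted p = 0.544), and the prepubertal minus adult difference of these changes was 0.87 units (SE 0.80, adjusted p = 0.999). Over 12 arrays the adult difference was -1.69 (SE 1.42, adjusted p = 0.724), and its size turned on single arrays and settings, at -3.14 without GV adult replicate 1, -1.20 without GV adult replicate 2, -0.74 without GV adult replicate 3, -0.91 with each array centred on its median and -3.08 with the letter b as a covariate. The adult call was narrow: leaving out any single one of the 9 arrays other than MII adult replicates 2 and 3 ended it, with adjusted p of 0.0529 without GV adult replicate 2, 0.174 without GV adult replicate 3, 0.0974 without MII adult replicate 1, and 0.0694 to 0.0922 without one of the 4 prepubertal pools. Over all its alternatives the adult difference ran from -3.60 to -2.67, with adjusted p from 0.0126 to 0.332.

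COX5B, a nuclear-encoded subunit of complex IV, followed the same course. It measured 9.82, 10.77 and 10.16 in MII adult pools, against 7.01, 13.73 and 14.25 in GV adult pools. MII prepubertal pools measured 14.59, 9.91 and 10.93, against 13.76, 12.68 and 14.35 in GV prepubertal pools. With the 3 apart arrays set aside, the 5 MII pools (9.82 to 10.93) again lay wholly below the 4 GV pools (12.68 to 14.35). The adult difference was -3.74 log2 units (SE 0.71, adjusted p = 0.0545) and the prepubertal one -3.09 units (SE 0.78, adjusted p = 0.544), so neither passed. Over 12 arrays the adult difference was -1.41 (SE 1.62, limma adjusted p = 0.795) and the prepubertal one -1.78 (SE 1.62, adjusted p = 0.999). A contrast that averages maturation over both ages, chosen after these values were seen, gave -3.42 units for COX5B (SE 0.53, adjusted p = 0.0154) and -2.71 for ATP5IF1 (SE 0.40, adjusted p = 0.0141), both past the test. In that contrast 62 of 14409 probe sets passed as lower (0.43%) and 42 as higher (0.291%), and these were the only 2 members among them; over 12 arrays 0 of 14409 passed (0%), with 3 members lower at an unadjusted p under 0.05 (background 6.27%). Both calls were lost when any 1 of the 4 prepubertal pools of the 9 arrays was left out, and also under median centring and without the intensity trend. Besides these 2, COX7A1 and UQCRQ were the members in which all 5 MII pools lay below all 4 GV pools, against 3.53% of all probe sets.

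**Figure D2:**
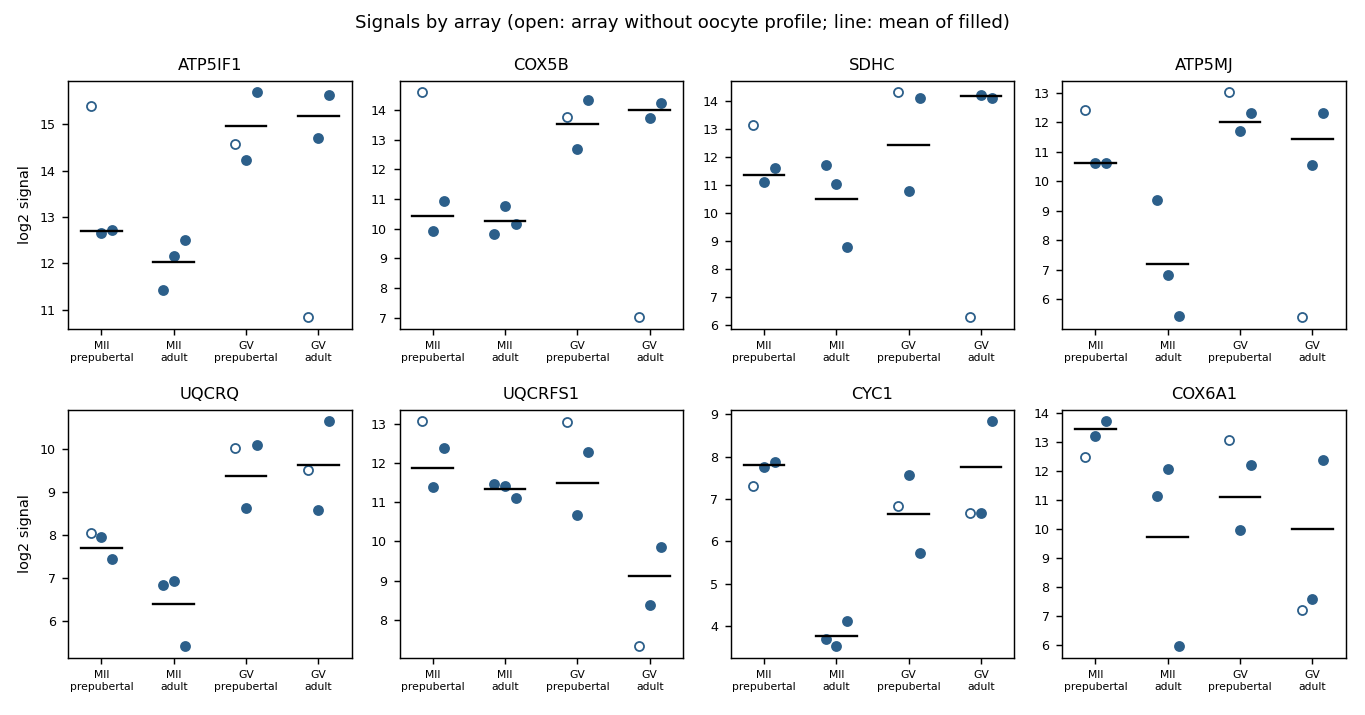
The log2 signal (y axis, scaled per gene) of 8 genes on each array, by group (x axis); filled points are the 9 arrays with an oocyte profile, open points the other 3, and the line is the mean of the filled points. For ATP5IF1 and COX5B the filled MII points lie below all filled GV points, while CYC1 is lowest in the 3 MII adult pools, at 3.53 to 4.12.

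Among the 4 genes of complex II no common course was found. SDHA, the flavoprotein that oxidises succinate, measured 10.85, 10.18 and 8.99 in MII prepubertal pools and 8.90, 9.41 and 9.45 in MII adult pools. It measured 10.92, 11.40 and 10.72 in GV prepubertal pools, against 9.64, 6.78 and 8.98 in GV adult pools. On the 9 arrays both GV prepubertal values lay above both GV adult values, and the age difference at GV was 3.18 log2 units (SE 1.13, adjusted p = 0.997). SDHB, the iron-sulfur subunit, measured 9.68, 9.97 and 8.51 in MII prepubertal pools, against 8.87, 2.89 and 6.81 in GV prepubertal pools. In adults it measured 6.23, 9.10 and 4.80 at MII, against 8.44, 5.88 and 7.77 at GV. Over the 9 arrays its prepubertal maturation difference, 4.39 units (SE 1.79, adjusted p = 0.682), was the largest upward one among the members, and GV prepubertal replicate 2, at 2.89, was far below the other GV pools.

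SDHC and SDHD, the membrane anchors of complex II that bind ubiquinone, were lower at MII in adults. SDHC measured 11.73, 11.02 and 8.79 in MII adult pools, against 6.26, 14.24 and 14.14 in GV adult pools, and only GV adult replicate 1 broke the separation. The difference over the 9 arrays was -3.67 units (SE 0.97, adjusted p = 0.158), and over 12 it was -1.03 (SE 1.72, limma adjusted p = 0.864). In prepubertal pools SDHC measured 13.15, 11.12 and 11.62 at MII, against 14.32, 10.79 and 14.11 at GV, and the groups overlapped. SDHD measured 8.03, 7.95 and 7.16 in MII adult pools, against 9.45, 8.94 and 9.11 in GV adult pools. Its adult difference was -1.31 units (SE 1.20), and in prepubertal pools it measured 10.57, 7.70 and 7.75 at MII, against 11.25, 6.30 and 8.80 at GV.

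Complex III was divided by subunit. CYC1, cytochrome c1, which hands electrons to cytochrome c, measured 7.32, 7.75 and 7.88 in MII prepubertal pools, against 3.69, 3.53 and 4.12 in MII adult pools. It measured 6.83, 7.56 and 5.72 in GV prepubertal pools, against 6.66, 6.66 and 8.84 in GV adult pools. The 3 MII adult pools were thus the lowest of all 12, also counting the arrays set apart. Their CYC1 values lay below the filter cut of 5.57 and below their own array medians (5.88, 6.06 and 6.52). The size of the CYC1 differences from this group is therefore uncertain. The adult maturation difference was -3.97 log2 units over the 9 arrays (SE 1.41, adjusted p = 0.279) and -3.61 over 12 (SE 1.34, adjusted p = 0.565). The prepubertal one was 1.18 units (SE 1.54), and the test of the difference between them gave 5.15 units (SE 2.08, unadjusted p = 0.0264, adjusted p = 0.999 by limma).

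The small subunits UQCR10 and UQCRQ, which surround the catalytic core, gave lower signals at MII than at GV at both ages on the 9 arrays. UQCRQ measured 8.04, 7.95 and 7.43 in MII prepubertal pools, against 10.02, 8.63 and 10.09 in GV prepubertal pools. It measured 6.83, 6.92 and 5.40 in MII adult pools, against 9.50, 8.59 and 10.65 in GV adult pools. Here the stages separated on all 12 arrays, the only member for which they did (background 0.5%), and the adult difference was -3.24 units over 9 arrays (SE 1.22, adjusted p = 0.309) and -3.20 over 12 (SE 1.13, adjusted p = 0.564). UQCR10 measured 11.24, 5.61 and 8.56 in MII prepubertal pools, against 10.35, 9.57 and 10.10 in GV prepubertal pools. In adults it measured 6.75, 3.86 and 4.25 at MII, against 7.52, 8.04 and 10.85 at GV, the largest adult difference of any member at -4.49 units (SE 1.45, adjusted p = 0.226). Its values in MII adult replicates 2 and 3 lay below the filter cut of 5.57, so the size of this difference is uncertain. UQCR11, another small subunit, measured 10.90, 6.62 and 6.44 in MII prepubertal pools, against 11.91, 8.37 and 7.22 in GV prepubertal pools, a difference of -1.26 units over the 9 arrays (SE 1.61). Adult pools measured 3.99, 6.27 and 8.11 at MII, against 7.77, 6.98 and 9.39 at GV, and overlapped.

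UQCRFS1, the Rieske iron-sulfur protein of complex III, ran the other way in adults. It measured 11.46, 11.42 and 11.11 in MII adult pools, against 7.32, 8.39 and 9.87 in GV adult pools. Each MII adult pool lay above each GV adult pool, over 12 arrays too, with a difference of 2.20 units over the 9 arrays (SE 0.82, adjusted p = 0.305). Prepubertal pools measured 13.07, 11.39 and 12.37 at MII, against 13.05, 10.68 and 12.28 at GV. The low GV adult values also gave the age difference at GV, 2.35 units over 9 arrays (SE 0.90, adjusted p = 0.997) and 3.48 over 12. The core proteins UQCRC1 and UQCRC2 and the small subunits UQCRB and UQCRH had adult differences of -1.37, 1.11, 0.72 and 0.999 units, with overlapping stages. For UQCRB the other kept probe set gave -1.22 units, so its direction is uncertain.

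In complex IV, the cytochrome c oxidase, 11 of 12 genes were lower at MII in adults over the 9 arrays, and COX5A, a subunit on the matrix side, was the exception. COX5A measured 12.70, 11.94 and 13.31 in MII adult pools, against 7.45, 10.27 and 12.21 in GV adult pools. Its prepubertal values were 13.39, 13.31 and 13.17 at MII, against 13.28, 12.11 and 12.85 at GV. Differences were 1.41 units in adults (SE 0.68, adjusted p = 0.453) and 0.76 in prepubertal pools (SE 0.74). COX4I1, the ubiquitous isoform of a regulatory subunit that binds adenine nucleotides, measured 9.36, 8.95 and 2.79 in MII adult pools, against 6.28, 9.61 and 12.11 in GV adult pools. Its adult difference was -3.83 units (SE 1.71, adjusted p = 0.408), and MII adult replicate 3 lay far below the other pools. Prepubertal pools measured 12.92, 8.17 and 11.04 at MII, against 12.33, 10.30 and 12.21 at GV, and the groups overlapped.

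COX7A1 and COX7A2, isoforms of the same complex IV subunit, gave lower mean signals at MII at both ages over the 9 arrays, neither past the test, and the difference between isoforms was not tested. COX7A1, the heart and muscle isoform, measured 9.33, 2.97 and 7.25 in MII prepubertal pools, against 10.43, 8.87 and 8.31 in GV prepubertal pools. It measured 7.99, 4.29 and 5.73 in MII adult pools, against 5.59, 9.00 and 10.41 in GV adult pools. Differences over the 9 arrays were -3.48 units in prepubertal (SE 1.70, adjusted p = 0.727) and -3.71 in adult oocytes (SE 1.55, adjusted p = 0.370). COX7A2, the ubiquitous isoform, measured 14.61, 13.11 and 12.81 in MII prepubertal pools, against 14.42, 13.49 and 14.64 in GV prepubertal pools. In adults it measured 12.51, 12.60 and 12.65 at MII, against 10.68, 12.66 and 14.52 at GV, and the differences were -1.10 units in prepubertal (SE 0.63) and -1.003 units in adult oocytes (SE 0.58). COX7A2L, which joins complexes III and IV into supercomplexes, measured 11.70, 13.66 and 13.93 and 13.12, 13.62 and 14.88 in MII prepubertal and MII adult pools. In GV pools it measured 11.34, 13.35 and 14.12 in prepubertal and 7.81, 13.79 and 14.67 in adult oocytes. Its 9 oocyte values spanned 13.12 to 14.88, the adult maturation difference was -0.35 units (95% interval -1.47 to 0.77), and the 3 arrays set apart were the 3 lowest.

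For subunit 6A, COX6A1, the ubiquitous isoform, measured 12.50, 13.22 and 13.73 in MII prepubertal pools, against 11.15, 12.07 and 5.94 in MII adult pools. It measured 13.08, 9.97 and 12.22 in GV prepubertal pools, against 7.19, 7.58 and 12.40 in GV adult pools. COX6A2, the muscle isoform, stayed below the filter, at 2.07 to 7.71 over 12 arrays. COX6B2, known as the testis isoform of subunit 6B, measured 5.63, 8.86 and 8.56 in MII prepubertal pools, against 2.45, 7.95 and 3.03 in MII adult pools. In GV pools it ran from 0.93 to 8.76, a spread as wide within a group as between groups. COX8A, the ubiquitous isoform of subunit 8, measured 8.05, 9.89 and 10.08 in MII prepubertal pools, against 7.74, 9.48 and 4.62 in MII adult pools. GV pools measured 10.88, 7.68 and 9.95 in prepubertal and 6.24, 9.50 and 9.09 in adult oocytes. COX8B, the heart and muscle isoform, measured 10.10, 8.65 and 7.38 in MII adult pools, against 5.91, 11.31 and 10.63 in GV adult pools, and 12.84, 11.63 and 8.83 and 11.50, 9.27 and 13.02 in MII and GV prepubertal pools. Its second kept probe set had a difference of the opposite sign in adult maturation, 1.29 against -2.26 units, so its direction is uncertain.

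In complex V the largest adult differences were those of membrane subunits. ATP5MJ, a small proteolipid of the membrane part, measured 12.42, 10.62 and 10.61 in MII prepubertal pools, against 9.36, 6.82 and 5.42 in MII adult pools. It measured 13.01, 11.71 and 12.32 in GV prepubertal pools, against 5.38, 10.56 and 12.32 in GV adult pools. The MII adult pools were low, and the adult maturation difference was -4.24 log2 units (SE 1.13, adjusted p = 0.158), against -1.40 in prepubertal oocytes (SE 1.24). ATP5ME, a supernumerary membrane subunit, measured 12.48, 9.58 and 10.68 in MII prepubertal pools, against 8.06, 8.20 and 7.59 in MII adult pools. GV prepubertal pools measured 13.78, 7.78 and 12.06, against 8.40, 9.71 and 13.58 in GV adult pools. The adult difference was -3.69 units (SE 1.34, adjusted p = 0.289), and the prepubertal one 0.21 (SE 1.47).

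The genes ATP5MC1, ATP5MC2 and ATP5MC3 are known to encode the same mature subunit c, which forms the rotating ring of the membrane part. ATP5MC1 measured 6.94, 8.91 and 7.61 in MII prepubertal pools, against 6.30, 5.66 and 5.42 in MII adult pools. It measured 7.87, 7.02 and 9.39 in GV prepubertal pools, against 9.86, 8.17 and 8.86 in GV adult pools. ATP5MC3 measured 11.95, 11.60 and 13.88 in MII prepubertal pools, against 10.53, 11.23 and 8.11 in MII adult pools. On the 9 arrays these 2 had their lowest values in MII adult pools, with adult maturation differences of -2.72 (SE 1.27, adjusted p = 0.434) and -2.41 units (SE 0.96, adjusted p = 0.342). GV pools measured 11.56, 11.39 and 12.66 in prepubertal and 10.19, 12.03 and 12.71 in adult oocytes for ATP5MC3. ATP5MC2 measured 11.69, 8.89 and 6.14 in MII prepubertal pools, against 8.18, 8.46 and 7.80 in MII adult pools. Its GV pools measured 11.28, 8.49 and 8.85 in prepubertal and 10.24, 8.11 and 9.39 in adult oocytes, the stages overlapped, and the adult difference was -0.60 units (SE 1.20).

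Subunits of the catalytic head and the stalks had smaller adult differences, the largest in size being that of ATP5F1D at -1.43 units (SE 1.98), and its other kept probe set gave 1.76. ATP5F1A and ATP5F1B, the alpha and beta subunits, had adult maturation differences of -0.62 and 0.99 units, and ATP5F1C, the gamma subunit that turns inside the head, -0.97. ATP5F1B measured 12.48, 10.02 and 10.39 in MII prepubertal pools, against 11.03, 9.85 and 8.32 in GV prepubertal pools, and adult pools measured 11.15, 10.56 and 7.46 at MII, against 6.42, 9.20 and 8.28 at GV. The range of ATP5F1B within a stage was as wide as the gap between stages. ATP5PF, a coupling factor of the peripheral stalk, measured at least 13.51 in all 3 MII prepubertal pools, against 13.69, 11.55 and 13.17 in GV prepubertal pools. It was higher at MII by 1.51 units there (SE 0.63, adjusted p = 0.682) and by 0.81 in adults (SE 0.58), where MII pools measured 13.05, 13.33 and 13.55, against 8.51, 11.94 and 13.06 in GV pools. ATP5PB, the b subunit of the same stalk, measured 13.64, 12.09 and 12.27 in MII prepubertal pools, against 14.09, 13.57 and 13.55 in GV prepubertal pools. Its prepubertal difference was -1.38 units (SE 0.55, adjusted p = 0.682), and in adults it measured 13.12, 12.33 and 12.73 at MII, against 8.76, 12.95 and 13.50 at GV. ATP5PO, which joins stalk and head, measured 12.03, 10.41 and 10.75 in MII prepubertal pools, against 12.48, 11.71 and 12.01 in GV prepubertal pools, and 10.97, 10.99 and 11.31 in MII adult pools, against 10.80, 10.94 and 10.42 in GV adult pools. Its differences had opposite signs, -1.28 (SE 0.79) in prepubertal and 0.41 (SE 0.72) in adult oocytes. ATP5MG, a membrane subunit, measured 11.67, 9.85 and 10.07 in MII prepubertal pools, 10.47, 8.78 and 9.49 in MII adult pools, 11.43, 9.62 and 9.82 in GV prepubertal pools and 5.97, 9.03 and 9.35 in GV adult pools. It gave 0.39 units in adults from the probe set used, but -4.17 (limma adjusted p = 0.308) from its other kept probe set, so its direction is uncertain.

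In prepubertal oocytes the members were divided between the stages. On the 9 arrays 22 of 42 members were lower at MII, with a median of -0.22 log2 units against -0.14 for all probe sets. No probe set passed the test (0%), and at an unadjusted p under 0.05, 3 members were lower (ATP5IF1, COX5B and ATP5PB; background 3.42%) and 2 were higher (SDHB and ATP5PF; background 3.57%). Over 12 arrays the median was -0.14, 0 of 14409 passed (0%), and no member reached an unadjusted p under 0.05 (backgrounds 2.19% lower and 1.22% higher). Centring the arrays on their medians moved the median of all probe sets by 0.80 units and turned the member median to 0.59 over the 9 arrays, so its direction depends on the scaling. The array median was 7.52 on GV prepubertal replicate 2 and 5.65 on replicate 3, against 5.93 and 5.64 on the MII prepubertal arrays. The labels do not name prepubertal pools of the same replicate number as pairs, and the values do not establish it. The number was nevertheless tried as a block over the 4 prepubertal arrays with an oocyte profile, which leaves 1 residual degree of freedom. In that fit COX5B (-3.09 units), COX6A1 (2.38) and ATP5IF1 (-2.27) passed among 154 probe sets (1.07%). With only those 4 arrays and no block, COX5B and ATP5IF1 passed among 43 (0.298%).

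The test of the difference between the ages, prepubertal minus adult maturation, passed for no probe set over 9 arrays or over 12 (0% each). Over the 9 arrays 31 of 42 members had a positive value, the median was 0.78 log2 units against -0.17 for all probe sets, and CYC1 (5.15), ATP5MF (4.96) and ATP5MC3 (3.13) reached an unadjusted p under 0.05, against a background of 0.979%. Over 12 arrays only CYC1 did (4.55; background 0.375%), 22 of 42 were positive, and the median was 0.17, with values from -0.50 to 1.03 when single arrays were left out. ATP5MF, the f subunit of the membrane part, measured 9.94, 9.14 and 9.73 in MII prepubertal pools, against 10.65, 6.82 and 8.11 in GV prepubertal pools. It measured 6.33, 9.57 and 4.59 in MII adult pools, against 6.28, 9.06 and 10.57 in GV adult pools. Of the 42 members, 20 were lower at MII at both ages, or 47.6%, against 32.4% of all probe sets, and 28 had the same sign at both ages, or 66.7%, against 62.5%.

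**Figure D3:**
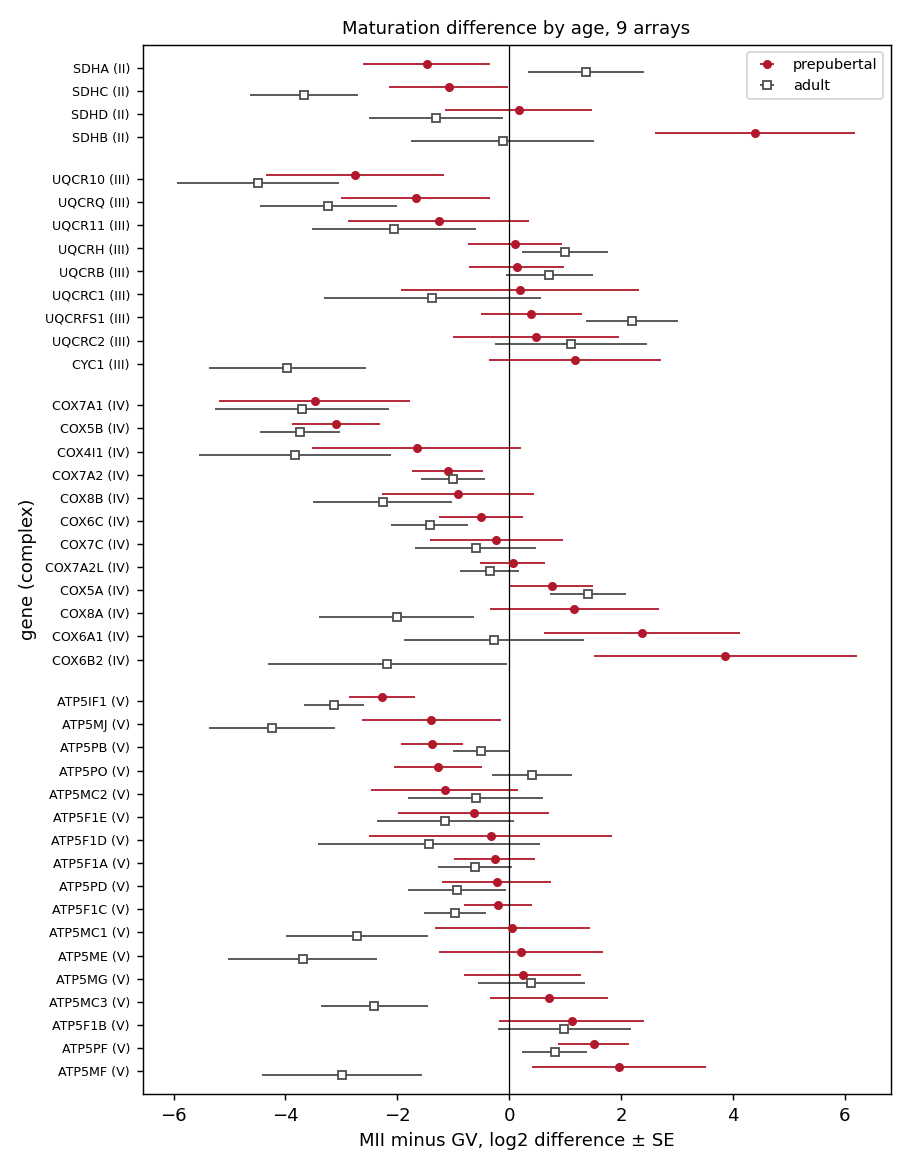
MII minus GV difference with its SE (x axis, log2 units) over the 9 arrays for each of the 42 kept genes, grouped by complex (y axis), in prepubertal (filled circles) and adult oocytes (open squares). Most adult points lie left of 0, as for 32 of 42 genes, while prepubertal points lie on both sides, with 22 of 42 lower.

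At the GV stage the members were divided between the ages once the arrays set apart were left out. Over the 9 arrays 19 of 42 were higher in prepubertal than in adult oocytes, with a median of -0.12 log2 units against 0.23 for all probe sets, and no probe set passed the test (0%). SDHA and UQCRFS1 were higher at an unadjusted p under 0.05, against a background of 3.24%. Leaving out single arrays gave member medians from -0.71 to 0.58, so no direction is set. Over 12 arrays 33 of 42 were higher with a median of 1.14, against 0.25 for all, and SDHA, UQCRFS1 and COX5A reached an unadjusted p under 0.05 (background 1.98%) while again 0 of 14409 passed (0%). On GV adult replicate 1, included in that comparison, 21 of 42 members lay below all 9 oocyte arrays. Its GV prepubertal counterpart, replicate 1, carried cumulus markers as given above, and the part of either array in this difference was not tested apart from leaving both out.

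At MII most members were higher in prepubertal than in adult oocytes, but none passed the test. Over the 9 arrays 36 of 42 were higher, with a median of 0.58 log2 units against 0.07 for all probe sets: all 4 of complex II (median 0.59), all 9 of complex III (0.55), 10 of 12 of complex IV (0.89) and 13 of 17 of complex V (0.57). Complex I went along with them, with 30 of 37 higher and a median of 1.05. Of the 6 other kept probe sets of members, 3 had the same sign as the one used. That of UQCRC2, in complex III, gave -0.41 units, against 0.43 from the probe set used. No probe set passed (0%), and ATP5MJ (3.42), ATP5MC3 (2.78), CYC1 (4.04) and COX6A1 (3.75) were higher at an unadjusted p under 0.05, against a background of 1.2%. In 14 members both MII prepubertal pools lay above all 3 MII adult pools (background 9.24%). Over 12 arrays 38 of 42 were higher with a median of 1.22, 6 were higher at an unadjusted p under 0.05 (background 1.91%), 11 did not overlap (background 4.78%), and 0 of 14409 passed (0%). The median stayed above 0 in every alternative tried, from 0.56 to 0.95 over the 9 arrays and from 0.58 to 1.59 over 12, and without MII adult replicate 3, the array with the lowest members, it was 0.74.

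The MII adult pools enter both this comparison and adult maturation, so a low value in them enters both. The adult maturation difference over the 9 arrays was -3.97 units for CYC1, -4.24 for ATP5MJ and -2.41 for ATP5MC3, but -0.27 for COX6A1 (SE 1.60), whose MII adult pools overlapped the GV adult pools. CYC1 was low in all 3 MII adult pools, below the filter cut of 5.57, whereas for COX6A1 and ATP5MC3 replicate 3 was well below the other 2. Cumulus and granulosa genes were higher in MII prepubertal pools for 12 of 20, with a median difference of 0.32 units over the 9 arrays; their linear sums were 9359 to 17940 in MII prepubertal pools and 8754 to 26978 in MII adult pools. The highest of these sums was that of an MII adult pool, and single genes of the list differed. PTX3, a gene of expanding cumulus, measured 7.54 and 8.74 in the 2 MII prepubertal pools and 6.14, 6.28 and 5.40 in the MII adult pools. TNFAIP6 measured 4.26 and 4.28, against 0.94, 0.29 and 4.11. INHA measured 6.44 and 4.10, against 4.67, 0.66 and 3.44, and overlapped. The part of other cells in the age difference was not tested.

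**Figure D4:**
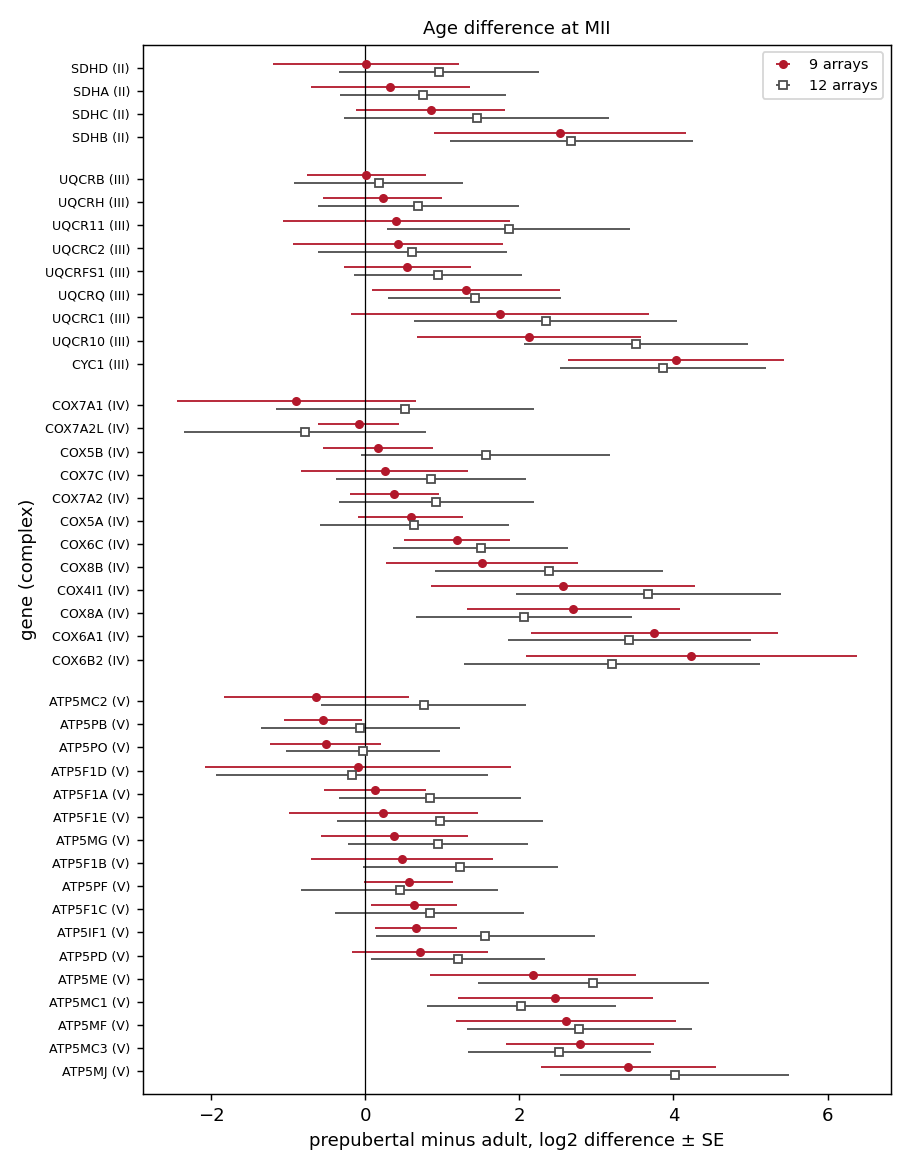
Prepubertal minus adult difference at MII with its SE (x axis, log2 units) for each of the 42 kept genes, grouped by complex (y axis), over the 9 arrays (filled circles) and over all 12 (open squares). Points lie right of 0 for 36 genes over 9 arrays and 38 over 12, and the intervals are wide, with no gene past the test.

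Across the 9 arrays many members varied with complex I, the entry complex of the chain that the rule left out. Pearson's r of a member with the median of 37 complex I subunits had a median of 0.56 over the 42 members, against -0.01 over all other kept probe sets. By complex the median was 0.40 for II, 0.52 for III, 0.64 for IV and 0.54 for V. COX6C (0.92), COX7A2 (0.90) and UQCRQ (0.87) were most alike, ATP5IF1 and COX5B stood at 0.69 and 0.62, and ATP5F1D, the delta subunit of the catalytic head, was lowest at -0.20. These values describe 9 arrays that share their amplification and scaling, and no p is given. The other probe sets were not matched to the members for signal, and the part of signal level in r was not tested.

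Probe choice and array number limit what can be said of single genes. Several probe sets were present for 10 members, and 6 other probe sets passed the filter. Of these, 2 had the same sign as the one used in adult maturation, 3 in prepubertal maturation and 3 for age at MII over the 9 arrays. The array signals of a gene varied widely between pools, with a median residual SD of 1.498 log2 units over the 9 arrays and 1.86 over 12. In simulated data for adult maturation over 14409 probe sets, the 9 arrays recovered 0% of changes of 2 log2 units, 11% of changes of 4 and 45.5% of changes of 6, and the 12 arrays 0%, 0% and 48%, so a gene that did not pass is not shown to be unchanged.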

How the data were processed

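The deposited values are log2 signals from 12 Affymetrix bovine arrays; per the submitters' processing notes they were made with MAS5 (version not given in the sources used here). For each array the linear signals without the lowest and highest 2% averaged 500, so no further scaling was applied. Array data give no read depth, and the number of pools limits the precision.

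Of 24128 probe sets, 112 controls were left out and 14409 with a mean above the 40th percentile (5.57 log2 units) were kept. The platform annotation named the probe sets, with Entrez identifiers looked up in a table of cattle genes (99.7% matched); 13292 probe sets had 1 symbol, 86 several and 10638 none. A model of 4 group means was run in limma 3.58.1 (R 4.3.3) with an intensity trend, over 12 arrays (8 residual degrees of freedom) and over the 9 arrays whose oocyte gene median lay at least 2 log2 units above the array median (5 degrees). The Benjamini-Hochberg adjustment covered all 14409, and an adjusted p under 0.05 counted as a call. The fit was tested on simulated data.

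Members, lists and the split into 9 arrays were chosen with earlier results of these data known, ATP5IF1 included. Named genes were ATP5IF1, members past the threshold, the 4 SDH genes, UQCRFS1, CYC1, paralog sets, and per complex, direction and comparison up to 3 members with the largest difference among those without overlap over the 9 arrays; others are named with a difference only. Deviations from group means correlated at 0.609, 0.149 and 0.306 between GV and MII prepubertal arrays of the same number. As all were over 0.1, a block by number was tried for these arrays, and other groups were not paired. GV prepubertal and GV adult arrays of the same number gave 0.383, -0.022 and 0.381. Replicate 1 of both prepubertal groups lacked an oocyte profile, and its part in the correlations was not tested. The labels name no pairs, so these values do not establish pairing. Alternatives were quantile normalization, median centring, other filters, a pseudocount of 32, a replicate block, the letter b as a covariate, no intensity trend, only the compared groups, an unadjusted threshold, averaging the probe sets of a gene and leaving out each array. Contrasts over both ages and the block over prepubertal arrays alone were chosen after seeing the data. Sequences were not used here.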

Additional observations from a re-analysis of the deposited data

How the results depend on the processing

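Of 244 counts recomputed under the alternatives, 210 stayed within 1.5 times the reported count, and no result reversed a call. Most of these were counts of 0 that stayed at 0, so they say little of the stability of the calls. Members were called only in adult maturation and in the contrast over both ages, over the 9 arrays. There 3 of 19 and 11 of 18 recomputed counts stayed within that limit. The 204 recomputed medians moved by less than the SD between pools of one group, but that SD was 1.16 log2 units over 12 arrays and 1.05 over 9, larger than most of the reported medians, so this says little of their stability. In adult maturation over the 9 arrays 1 member was called, against 0 with the 60th percentile filter, median centring, no intensity trend or only the compared groups, 2 with no filter, a pseudocount of 32 or 8 arrays (also without MII adult replicate 3), and 0 to 2 when single arrays were left out; the cause was not tested. All called probe sets there numbered 17, against 0 with median centring, no trend or only the compared groups, 54 with no filter, 58 with a pseudocount of 32, and 3 to 69 when single arrays were left out. In the contrast over both ages, 2 members were called, against 0 with median centring or no trend and 0 to 2 when single arrays were left out; all called probe sets numbered 104, against 0 with median centring or no trend, 220 with a pseudocount of 32, 315 over 8 arrays and 0 to 315 when single arrays were left out. In prepubertal maturation over the 9 arrays 0 members were called, against 2 with only the compared groups and 3 with the replicate block over prepubertal arrays alone; all called probe sets were 0, against 43, 154 and, without MII adult replicate 3, 5. Without GV adult replicate 3 age at GV over the 9 arrays gave 2 called probe sets, and without MII prepubertal replicate 1 the contrast over both ages over 12 arrays gave 9, against 0 in both. At an unadjusted p under 0.05 with at least a 2-fold change, the members counted over the 9 and 12 arrays were 13 and 6 in adult maturation, 2 and 3 for age at GV, 4 and 6 for age at MII, 3 and 1 for the difference between ages, and 11 and 3 over both ages. In prepubertal maturation they were 5 over the 9 arrays. Without the 2-fold limit, 6.94% of all probe sets were higher and 4.48% lower in adult maturation over 9 arrays (12 arrays: 4.08% and 3.85%). Those higher were 3.24% for age at GV (12 arrays: 1.98%), 1.2% for age at MII (1.91%) and 0.979% for the difference between ages (0.375%). In prepubertal maturation over the 9 arrays 3.57% were higher and 3.42% lower. Over both ages 1180 of 14409 were higher and 855 lower over 9 arrays, and 6.27% were lower over 12. With the replicate block in the whole fit, ATP5IF1 in adult maturation over the 9 arrays gave -2.84 log2 units with a limma adjusted p of 0.0456, 1 member was called, and no other member count changed. With the letter b as a covariate over 12 arrays 0 members were called in each comparison, as without it, while the ATP5IF1 difference in adult maturation was -3.08, against -1.69 without it. Member medians changed sign under some alternatives in adult maturation over 12 arrays (-1.23 to 0.17), prepubertal maturation over 9 (-1.14 to 0.59) and 12 arrays (-0.80 to 0.77), age at GV over 9 (-0.71 to 0.58), the interaction over 12 (-0.50 to 1.03) and the contrast over both ages over 12 (-0.75 to 0.51); elsewhere the sign held. With 2 or 3 pools a group, changes of 2 and of 4 log2 units were mostly missed in the simulated data. Even changes of 6 units were recovered in only 45.5% over the 9 arrays and 48% over 12.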

Other observations

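The 3 arrays without an oocyte profile differed from the other 9 in opposite ways for these genes. On MII prepubertal replicate 1, 16 of 42 members lay above the range of the 9 oocyte arrays, or 38.1%, against 18.7% of all 14409 kept probe sets. On GV prepubertal replicate 1 the count was also 16 of 42, against 24.8% of all probe sets, and in both cases 1 member, COX7A2L, lay below the range. ATP5MC2, which encodes subunit c of complex V, measured 11.69 and 11.28 on these 2 arrays, against at most 9.39 on the 9, and SDHD measured 10.57 and 11.25, against at most 9.11. On GV adult replicate 1, in contrast, 21 of 42 members lay below the range, or 50%, against 19.0% of all probe sets, and 3 lay above it (ATP5MC1, ATP5MC2 and SDHD). For complex V the share below was 10 of 17, and for complex IV 7 of 12. The summed cumulus and granulosa signals were high on both prepubertal arrays but not on GV adult replicate 1, as given above. On GV adult replicate 1 TNFAIP6 (10.05) and INHA (7.99) still lay above the 9 arrays (at most 7.41 and 6.44). PTX3 (7.61) did not, and the array median, 8.30, was the highest of any array. The signals of 14 theca and stroma genes summed to 6333 there, against 630 to 2501 on the 9 arrays. They summed to 44799 on MII prepubertal replicate 1 and 24812 on GV prepubertal replicate 1. The part of other cells in these values was not tested. As each is a single array, these counts carry no test.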
